A study of Mus musculus with 4 samples.

Results

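The postsynaptic density is the dense protein plate under the membrane of excitatory synapses, and 38 mouse genes that encode its scaffolds, kinases and their close partners were examined for occupancy by CTCF in cultured cortical neurons. The genes were taken by name from a fixed list, out of 21770 protein-coding genes with chromosome coordinates in RefSeq (GRCm38.p6, the build called mm10 in the file). That list was chosen with earlier results of these data known. All 38 symbols were found. Of these, 27 belong to 9 families of paralogues (Dlg, Dlgap, Shank, Homer, Camk2, Iqsec, Magi, Ppp1r9 and Tanc) and 11 stand alone in the list.

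Dlg proteins hold glutamate receptors at the membrane through PDZ domains, Dlgap proteins tie Dlg to Shank, and Shank and Homer form the deeper layer that reaches the actin cytoskeleton and metabotropic glutamate receptors. Camk2 kinases, exchange factors for small GTPases and actin-binding proteins work within this frame when synapses change strength. CTCF is a DNA-binding zinc finger protein that, with cohesin, anchors chromatin loops, and its sites are often found near promoters and between regulatory domains.

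The samples were 2 CTCF immunoprecipitations and 2 inputs, all from wild-type primary cortical neurons of Swiss-Webster mice, dissected at embryonic day 16 and kept in culture until day 13, with no treatment given for these samples (the shared culture text describes etoposide). The deposited result is 1 list of 33820 peaks that were found in both immunoprecipitations at an irreproducible discovery rate of at most 0.05, and a peak was placed by its summit. Strength below adds the −log10 p values deposited in a first and a second replicate column. Neither column is tied to a labelled replicate. Over the list the median strength was 166, with column medians of 30.9 and 129. A single condition and a single joint list allow no test, so the genes are set beside all protein-coding genes as a description. CTCF occupancy does not report expression, so the neuronal label could not be checked against marker genes.

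Most of the 38 genes carried CTCF, in 3 places: at an end (a summit within 1 kb of either bound), inside the bounds, or in the flanks (over 1 kb and up to 50 kb outside). A peak lay at an end of 20 of 38 genes (52.6%), against 29.2% of all protein-coding genes. At least 1 summit lay inside 37 genes (97.4%), against 44.6% of all, and the exception was Psd. The flanks of 29 genes (76.3%) held a peak, which is close to the 77.1% of all. Counts inside include an end peak whose summit lies within the bounds. Together 262 distinct peaks were involved, 23 at ends, 141 inside and away from the ends, and 98 in flanks, and no peak was shared between members. The median length of the 38 genes was 104 kb, against 17.2 kb for all protein-coding genes, so the shares are read by length class further on. Within the bounds lay 154 summits, at 1.34 per 100 kb (1.14 to 1.57), which is below the 1.82 per 100 kb over all protein-coding genes. These 2 pooled values are not matched for length, and over all genes density was lower in each longer class. Within length classes, the density of the members was above that of all genes except at 100 to 300 kb.

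**Figure D1:**
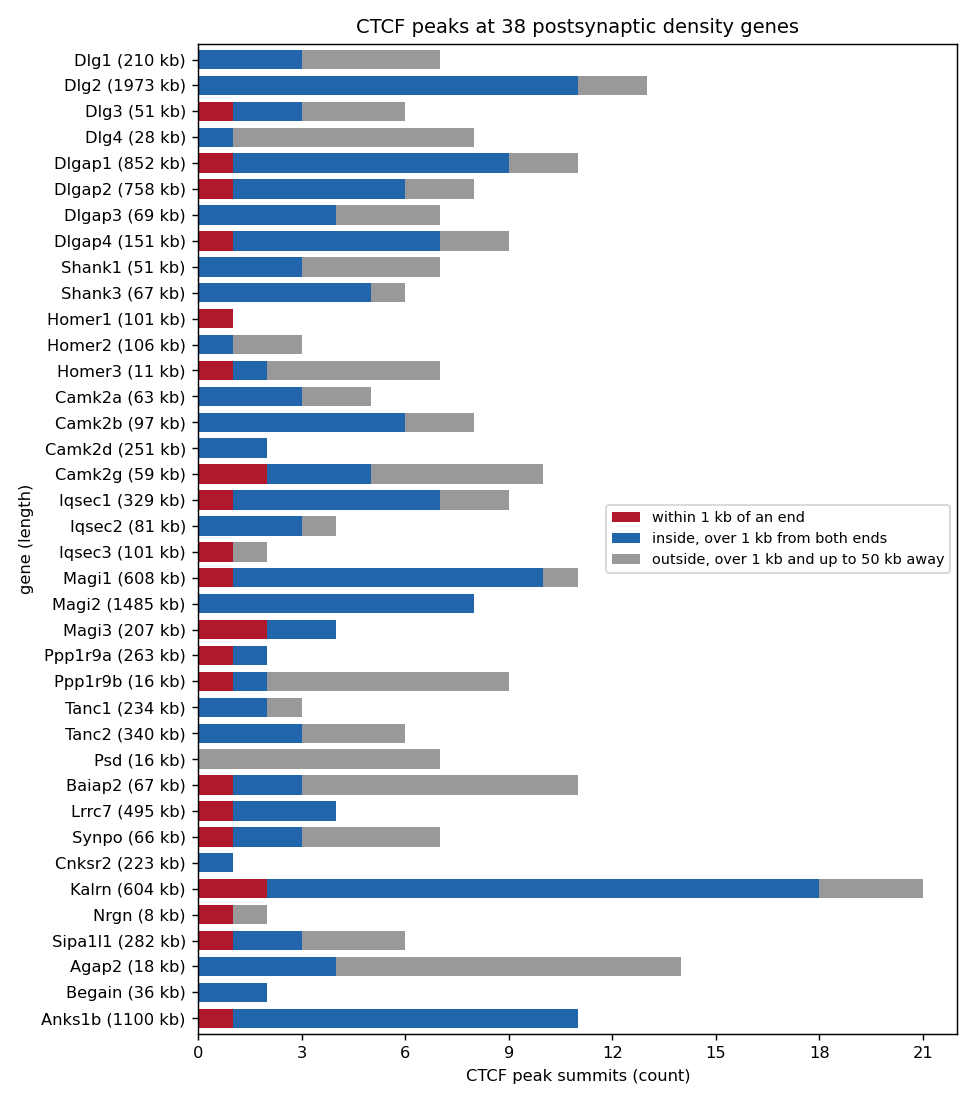
Peak summits per gene (count, horizontal axis) for each of the 38 genes (vertical axis, with gene length), split into those within 1 kb of an end, those inside and over 1 kb from both ends, and those outside by over 1 kb and up to 50 kb. Kalrn has the longest bar, with 2 end peaks, 16 deeper inside and 3 in its flanks, while Psd has flank peaks alone.

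The Dlg genes encode the membrane-associated guanylate kinases that organise glutamate receptors, and 1 of the 4 had an end peak, a share near the 29.2% of all genes. Dlg3, which encodes SAP102 and lies on X, had this peak, a weak one of strength 51.7, with 8.82 in the first column and 42.9 in the second. Dlg4, which encodes PSD-95 (chromosome 11, 70017203 to 70045535), had none at its ends or at its 3 annotated starts. Its 1 internal peak (strength 129, columns 18.9 and 110) had a relative position of 0.13, on a scale of 0 at the 5′ bound to 1 at the 3′ bound. The nearest summit outside Dlg4 was 2.12 kb away (strength 181) at an end of Acadvl, and 7 peaks in all lay in its flanks. Dlg4 was thus closely surrounded by peaks but had none at its own promoter.

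Dlg2, the longest of the 38 genes at 1973 kb (chromosome 7), held 11 summits, from 37.7 to 586 in strength. This is 0.56 per 100 kb (exact Poisson 95% interval 0.28 to 1.00, counting error only). The strongest, at 91431616 to 91432703, had 72.2 in the first column and 513 in the second. None of its 3 annotated starts had a summit within 1 kb. Dlg1, which encodes SAP97, held 3 in 210 kb, of strength 143, 155 and 224, at relative positions of 0.20 to 0.42, with none in its last 123 kb. Dlg3 held 2 in 51.0 kb, at 109 and 218, and both lay within 1 kb of an annotated internal start. Across the family length differed 69.6-fold and density 7.03-fold, with Dlg2 the least dense.

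The Dlgap genes, whose products link Dlg to Shank, had an end peak in 3 of 4 cases. Dlgap1, of 852 kb on chromosome 17, had the strongest at 596, with 307 in the first column and 289 in the second. It sat 121 bp inside the gene, at the annotated start. Dlgap4 had one of 306 (columns 88.0 and 218) and Dlgap2 one of 71.3 (columns 41.9 and 29.4). Dlgap3 had none, though its outermost internal summits lay just past the limit, 1125 bp and 1133 bp from its bounds, with strengths of 237 and 398.

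Inside the bounds Dlgap1 held 9 peaks, Dlgap2 and Dlgap4 6 each and Dlgap3 4. Their densities were 1.06, 0.79, 3.98 and 5.82 per 100 kb in the order Dlgap1, Dlgap2, Dlgap4 and Dlgap3. The shorter pair was denser than the longer pair, and the intervals of Dlgap2 (0.29 to 1.72) and Dlgap4 (1.46 to 8.66) overlapped. Of the 9 in Dlgap1, 7 were above the list's median strength. After its start peak no summit followed for 408 kb, which is 47.9% of the gene. Dlgap4 held its strongest peak not at the bound but at its annotated start, far inside at 156720369 to 156721446 on chromosome 2 (strength 662, columns 375 and 287).

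**Figure D2:**
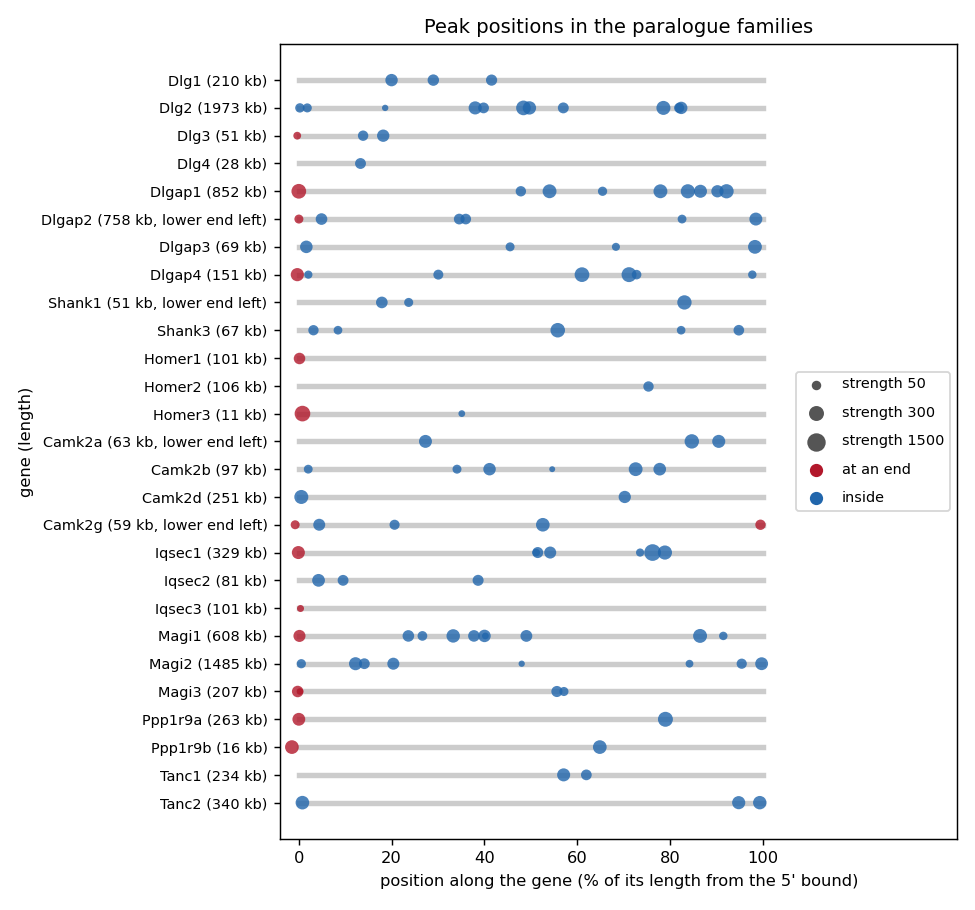
Position of each summit along the gene (percent of gene length from the 5′ bound, or from the lower bound where noted) for the 27 genes in families, with point area growing with the logarithm of joint strength. Most end peaks, those of Dlgap1 and Homer3 among them, fall at the left edge, and Tanc2 has no summit over 94.1% of its length.

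Shank proteins join Dlgap to Homer and to actin regulators. Shank1 (chromosome 7, 51.2 kb) and Shank3 (chromosome 15, 67.2 kb) both lacked an end peak. Inside, Shank1 held 3 peaks, of 72.1, 169 and 500, and Shank3 held 5, of 64.1, 65.6, 106, 118 and 547. In each gene 1 summit stood well above the others. That of Shank3 (89529598 to 89531262) had 63.1 in the first column and 484 in the second, and that of Shank1 (44350855 to 44354777) had 88.5 and 412. Densities were 5.86 per 100 kb in Shank1 and 7.44 in Shank3, with broadly overlapping intervals (1.21 to 17.1 and 2.41 to 17.4). Of 5063 protein-coding genes of 30 to 100 kb, 48 held more peaks than Shank3. At its annotated start, which lies inside the bounds, Shank3 had the summit of 65.6, at −907 bp.

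Homer proteins bind metabotropic glutamate receptors and Shank, and these 3 genes differed more than any other family in density, 18.5-fold. This spread rests on 1 summit each in Homer1 and Homer2 and 2 in Homer3, whose interval was 2.11 to 62.9 per 100 kb. At an IDR of at most 0.01, Homer2 held 0 and Homer3 held 1. Homer3 (chromosome 8, 70282880 to 70294361, 11.5 kb) had an end peak of strength 935, with 464 and 470 in the columns, second only to Nrgn among the 38 genes. A weak one of 40.9 lay deeper inside. Homer1 (chromosome 13, 101 kb) had 1 peak, at its start, of strength 160 (columns 72.3 and 87.7), and none in its remaining 101 kb or in its flanks. Homer2 (chromosome 7, 106 kb) had none at its ends and 1 deep inside of strength 108 (columns 9.35 and 99.1). Homer1 and Homer2 each held 1 peak, and 1215 of 1870 genes of 100 to 300 kb held more. Both are near the lower limit of that class in length.

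The annotated promoters of RefSeq (300 bases, from 250 before to 50 after the start) were searched on both strands for the core of the CTCF motif, written as CCA, any 2 bases, AG, any 2 bases and GGC. A looser form, CC, any 3 bases, AG, any 2 bases and GG, contains every match of the first. The strict form was found in 2 of 61 promoters of the 38 genes (3.28%), against 2.43% of all 32851 promoters in the table, and the looser form in 21 (34.4%), against 24.0%. Promoters that held a summit carried the strict form in 1 of 8 cases for these genes, against 12.4% of 1994 in all, and the looser form in 4 of 8, against 53.0%. Promoters were available for 33 of the 38 genes. The sequences below are the promoter with the strict match under a strong peak (Homer3), the one with a strict match and no peak within 1 kb (the downstream start of Homer1), 2 with a looser match beside a summit (Dlgap4 and the upstream start of Ppp1r9a) and 1 with a strong summit and no match (Camk2d). They are written 5′ to 3′ on the gene's strand, and capitals mark the match.
Homer3, chr8:70282749-70283048, plus strand: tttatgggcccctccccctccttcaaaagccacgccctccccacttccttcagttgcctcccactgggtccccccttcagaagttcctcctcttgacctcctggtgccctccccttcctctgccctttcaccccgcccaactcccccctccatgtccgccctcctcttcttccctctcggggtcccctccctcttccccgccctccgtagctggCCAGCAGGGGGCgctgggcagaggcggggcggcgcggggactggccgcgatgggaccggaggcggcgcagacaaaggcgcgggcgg
Homer1, chr13:93307784-93308083, plus strand: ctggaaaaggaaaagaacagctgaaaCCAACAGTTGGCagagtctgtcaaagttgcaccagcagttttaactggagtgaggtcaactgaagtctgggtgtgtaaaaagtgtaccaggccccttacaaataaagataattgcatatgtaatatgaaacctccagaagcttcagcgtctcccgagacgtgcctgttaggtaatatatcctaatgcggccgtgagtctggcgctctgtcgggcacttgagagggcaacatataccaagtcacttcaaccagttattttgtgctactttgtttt
Dlgap4, chr2:156720715-156721014, plus strand: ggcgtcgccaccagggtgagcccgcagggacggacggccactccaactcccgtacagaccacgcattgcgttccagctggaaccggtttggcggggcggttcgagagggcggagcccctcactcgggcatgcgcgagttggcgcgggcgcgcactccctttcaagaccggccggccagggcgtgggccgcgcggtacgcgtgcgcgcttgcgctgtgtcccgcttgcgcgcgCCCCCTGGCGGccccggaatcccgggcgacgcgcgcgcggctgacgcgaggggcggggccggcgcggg
Ppp1r9a, chr6:4902725-4903024, plus strand: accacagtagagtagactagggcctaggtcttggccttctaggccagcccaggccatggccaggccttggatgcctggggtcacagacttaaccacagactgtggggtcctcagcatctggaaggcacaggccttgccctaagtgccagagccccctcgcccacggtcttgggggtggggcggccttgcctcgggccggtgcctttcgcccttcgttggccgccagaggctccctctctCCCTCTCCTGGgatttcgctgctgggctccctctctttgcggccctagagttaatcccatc
Camk2d, chr3:126596701-126597000, plus strand: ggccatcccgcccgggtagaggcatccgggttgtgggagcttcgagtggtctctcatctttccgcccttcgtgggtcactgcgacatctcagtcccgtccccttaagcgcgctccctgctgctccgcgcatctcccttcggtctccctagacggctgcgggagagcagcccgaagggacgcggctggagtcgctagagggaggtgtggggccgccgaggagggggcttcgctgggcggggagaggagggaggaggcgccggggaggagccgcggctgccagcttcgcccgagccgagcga

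In Homer3 the strict match ran from −36 to −25 relative to the annotated start, and the summit fell at −27, within it. In Dlgap4 the looser match ran from −18 to −8 on the opposite strand, with the summit at −11. In Ppp1r9a it ran from −11 to −1 on the opposite strand and the summit lay at −55. The strict match of the downstream Homer1 start ran from −224 to −213, but the nearest summit was at −4189, at the gene's upstream start. Camk2d had its summit at −71 (strength 435) and neither form within the window. A match is a string of letters and no match says only that these letters are not in the window.

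The Camk2 genes encode the subunits of calcium/calmodulin-dependent kinase II, of which the alpha and beta forms dominate in forebrain neurons and the delta and gamma forms are found in many tissues. End peaks were present in Camk2g alone. It had one at each bound, of strength 108 (columns 70.4 and 37.1) and 70.7 (columns 45.3 and 25.5), the weaker beside an end of Ndst2. Camk2d lacked one by the bounds but carried the summit of 435 at its annotated start, 1393 bp inside (columns 260 and 175). Camk2b had none at either place. Camk2a had none at its bounds, and its annotated start was not in the table.

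Inside, Camk2b held 6 peaks in 96.7 kb, Camk2g 4 in 59.3 kb, Camk2a 3 in 62.8 kb and Camk2d 2 in 251 kb. The longest gene of the family thus had the fewest. Only 16 of 5063 genes of 30 to 100 kb held more than Camk2b, which is near the upper limit of that class in length. The 3 peaks of Camk2a had strengths of 277, 290 and 517, all above the list's median, and the 2 strongest lay at 0.85 and 0.91 of the length from its lower bound. Densities were 6.20 per 100 kb in Camk2b, 6.75 in Camk2g, 4.77 in Camk2a and 0.80 in Camk2d. The interval of Camk2d (0.10 to 2.88) overlapped those of the others (2.28 to 13.5 for Camk2b), and the family spread was 8.46-fold.

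The Magi genes encode scaffolds with an inverted order of guanylate kinase and PDZ domains. Magi3 (chromosome 3) had 2 end peaks at its 5′ bound, of 161 (columns 79.2 and 81.4) and 39.4 (columns 23.1 and 16.2). Magi1 (chromosome 6) had 1 of 196 (columns 99.5 and 96.6), 949 bp inside, just within the limit. Magi2 (chromosome 5) had none by the bounds and a summit of 76.0 lying 567 bp downstream of an annotated start. Magi1 held 10 peaks in 608 kb and Magi2 8 in 1485 kb, so the longer gene held fewer. Densities were 1.64 per 100 kb in Magi1 (0.79 to 3.02), 0.54 in Magi2 (0.23 to 1.06) and 1.45 in Magi3. Magi2 was the least dense member after Cnksr2 and Psd.

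Other scaffolds varied as much. Tanc1 and Tanc2, which bind PSD-95, had nearly the same density, 0.85 and 0.88 per 100 kb, with 2 and 3 peaks inside and none at an end. The 3 of Tanc2 (302, 339 and 364) lay at its outer parts, leaving 320 kb or 94.1% of the gene without a summit. Lrrc7, which encodes densin, a partner of Camk2, had a strong 5′ end peak of 489 (columns 256 and 233) but 3 in its 495 kb, of 140, 140 and 149. Anks1b, of 1100 kb, had an end peak of 114 (columns 23.7 and 90.2) and held 10. Cnksr2, on X, held 1 in 223 kb, of strength 96.0 (columns 45.1 and 50.8), which lay 651 bp downstream of an annotated start. Begain, whose product binds PSD-95, held 2 weak ones of 32.8 and 107, and no flank peak.

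Exchange factors for Arf GTPases, which steer membrane traffic in spines, included the strongest peak inside any of the 38 genes. In Iqsec1 (chromosome 6, 329 kb) a summit at 90735983 to 90738355 had a strength of 1576, with 682 and 894 in the columns. Its relative position was 0.76, and it lay at −21080 bp from the nearest annotated start. Iqsec1 also had a 5′ end peak of 286 (columns 122 and 164) and held 6 in all. Iqsec2, on X, held 3 in 81.1 kb and had none at its ends. Iqsec3 (chromosome 6) had 1 weak peak, at its start, of 43.5 (columns 27.5 and 16.1). Psd, on chromosome 19, held none, but 2 of the strongest flank peaks of the whole set stood beside it. One of 1398 (columns 665 and 733) was 2850 bp away inside Nfkb2, and one of 1313 (columns 680 and 634) was 2049 bp away at an end shared by Cuedc2 and Fbxl15.

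Regulators of spine actin held the gene with the most peaks. Kalrn, which encodes kalirin (chromosome 16, 33969073 to 34573277), held 17 summits, of 34.9 to 412 with a median of 126. That is 2.81 per 100 kb (1.64 to 4.50), and 8 of 556 genes over 300 kb held more. At its 5′ bound it had a peak of 765 (columns 428 and 337) just outside and one of 69.1 (columns 32.2 and 36.9), counted among the 17, just inside. The 1 annotated start in the promoter table lay deeper in the gene and had no summit within 1 kb. Ppp1r9a, which encodes neurabin, had an end peak of 263 (columns 145 and 118) and Ppp1r9b, which encodes spinophilin, one of 382 (columns 194 and 188). At these end peaks the columns were nearly equal in both of these genes for actin and phosphatase-binding proteins. Off the ends the second column was larger, with 146 and 524 in Ppp1r9a and 84.7 and 296 in Ppp1r9b. Inside, Ppp1r9a held 2 in 263 kb and Ppp1r9b 1 in 15.7 kb.

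Among the remaining regulators, Synpo, which encodes synaptopodin of the spine apparatus, held a summit of 1215 (columns 587 and 628) near one bound and a weak end peak of 71.1 (columns 7.81 and 63.2). Baiap2, which encodes the membrane-bending protein IRSp53, had a 3′ end peak of 67.4 (columns 39.6 and 27.8), 899 bp outside its bound and beside Aatk, and one of 770 (columns 374 and 396) deep inside. Sipa1l1, a Rap regulator, had an end peak of 72.0 (columns 36.9 and 35.2) and 3 inside. Agap2, of 17.9 kb, held 4, of 66.2, 72.2, 80.2 and 460, and 3 of 6426 genes of 10 to 30 kb held more. Its summit of 460 lay 929 bp downstream of the annotated start. Nrgn, which encodes the calmodulin-binding protein neurogranin and is the shortest gene at 8.25 kb (chromosome 9), had the strongest end peak of the 38, 968 (columns 423 and 545). It sat at the 3′ bound, which lies beside an end of Vsig2.

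Within families, peaks inside were compared for 30 pairs of paralogues. The longer gene of the pair held more in 20 pairs, fewer in 8 and as many in 2. The density was higher in the shorter gene in 23 pairs and in the longer gene in 7. A shorter gene that holds as many peaks or more is denser by definition. The exact Poisson 95% intervals of density overlapped in every one of the 30 pairs. Such overlap is not a test of a difference, and none was made. The ratio of highest to lowest density ran from 1.03-fold in Tanc to 18.5-fold in Homer.

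**Figure D3:**
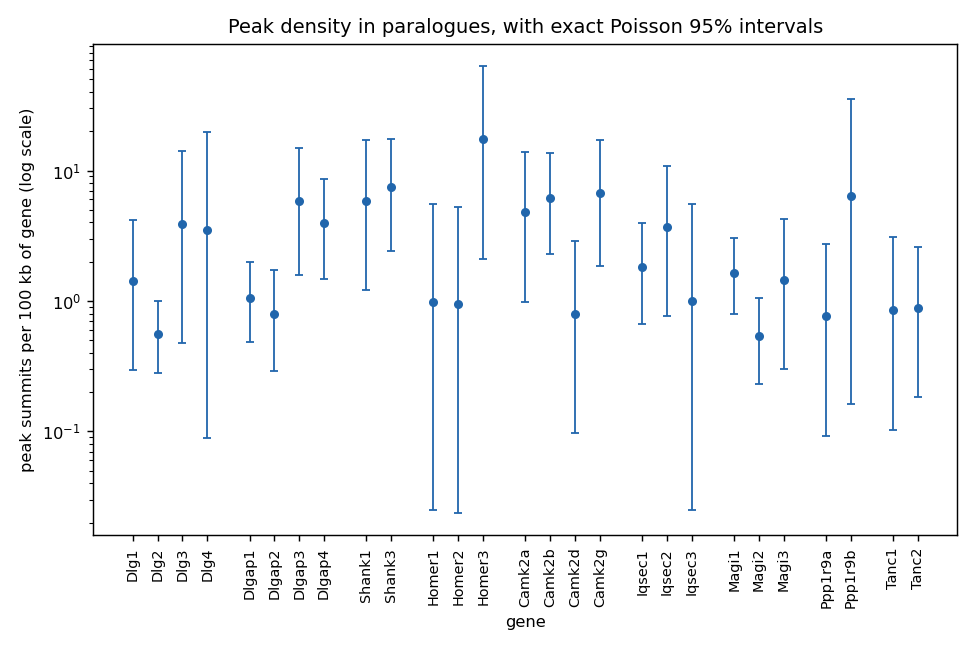
Peak summits per 100 kb of gene (log scale) for the 27 genes in families, with bars for exact Poisson 95% intervals that cover counting error only. Points spread from 0.54 in Magi2 to 17.4 in Homer3, and within each family the bars overlap.

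Gene length went with both measures. Over the 38 genes longer genes held more peaks (Spearman's rho = 0.59, a description over genes that share 1 peak list and its depth) at a lower density (rho = −0.70). Over all 13915 protein-coding genes of 10 kb or more the same values were 0.47 and 0.02. Many of those genes hold no peak, whereas 37 of the 38 hold at least 1, so the density values are not like for like. Density also has length in its denominator, so with at least 1 peak in nearly all members a negative rho is partly built in. Pooled over genes, density was lower in each longer class from 10 kb up for all genes too. Without the longest gene the first value was 0.56, and without the 2 genes farthest from the median length 0.53. The shorter 19 genes, up to 101 kb, held 48 summits at 4.77 per 100 kb, and the longer 19, from 106 kb, held 106 at 1.01.

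Set beside genes of their own length class, members of 10 to 100 kb had a higher density, those of 100 to 300 kb a lower one and those over 300 kb a slightly higher one. No interval was computed for class densities, so these directions were not set against counting error. In the members, the 2 upper classes rest on 25 and 83 summits. The 11 genes of 30 to 100 kb held a median of 3 peaks (range 2 to 6), against 1 for all genes of the class, and 5.23 per 100 kb against 2.24. The 5 genes of 10 to 30 kb had 8.94 per 100 kb against 3.28. The 11 genes of 100 to 300 kb held a median of 2, equal to the class median of 2, with 1.17 per 100 kb against 1.56. The 10 genes over 300 kb held a median of 8.5 against 4, and 0.97 per 100 kb against 0.84. That class has no upper limit, and lengths within it were not matched, so its counts are not like for like. A peak inside was found in the 1 member under 10 kb, in 4 of 5, 11 of 11, 11 of 11 and 10 of 10 through the classes upward, against 18.5%, 43.5%, 65.4%, 86.5% and 94.8% of all genes. The 21 members of 100 kb or more had a median density of 0.94, against 1.15 for all 2426 such genes. These 2 sets differ in length, since 10 of the 21 but 556 of the 2426 were over 300 kb. The 5 densest of the 21 members were Dlgap4, Kalrn, Iqsec1, Magi1 and Magi3.

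**Figure D4:**
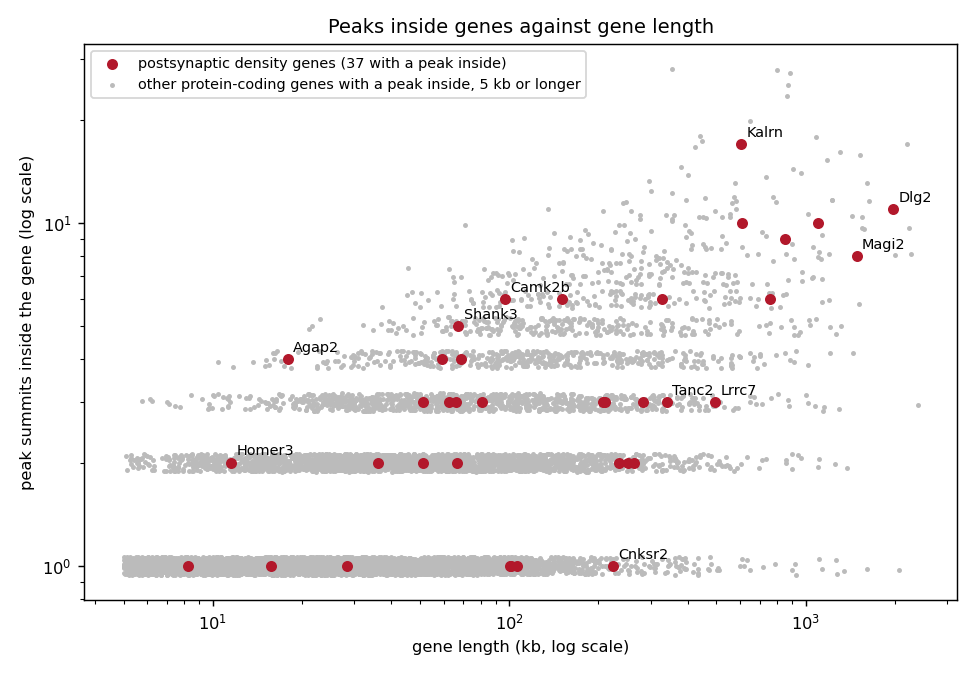
Peak summits inside a gene (log scale) against gene length (kb, log scale) for the 37 of 38 genes with a peak inside and for other protein-coding genes of 5 kb or more with one, the grey points spread slightly on the vertical axis for legibility. Kalrn (17), Camk2b (6), Shank3 (5) and Agap2 (4) lie toward the upper edge of the cloud for their length, while Cnksr2 (1) and Lrrc7 (3) lie lower.

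End peaks were read by length in the same way. They were found in the 1 member under 10 kb, against 21.5% of that class, in 2 of 5 genes of 10 to 30 kb against 29.6%, and in 4 of 11 of 30 to 100 kb against 33.7%. In the 2 upper classes they were found in 6 of 11 against 41.8% and in 7 of 10 against 47.7%. In the class of 30 to 100 kb the share was close to that of all genes. The count also moved with the choice of peaks. Above the list's median strength 10 genes had one (26.3% against 14.9% of all), and when the second column had to exceed its own median 8 (21.1% against 13.1%). With the same condition on the first column it was 16 (42.1% against 21.1%). With windows of 5 kb it was 34 of 38 (89.5% against 51.3%).

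Where the strand was known from the promoter table, end peaks gathered at the 5′ bound. It was occupied in 15 of 33 genes (45.5%), against 24.3% of 17491 protein-coding genes with a strand, and the 3′ bound in 2 (6.06%), Baiap2 and Nrgn, against 6.57%. An annotated start, which can lie inside the bounds, had a summit within 1 kb in 18 of 33 genes (54.5%), against 27.2%. These shares were not split by length class. Over all genes end peaks were more frequent in longer classes, from 21.5% under 10 kb to 47.7% over 300 kb. The 18 include 5 with no end peak by the bounds: Agap2, Camk2d, Cnksr2, Magi2 and Shank3. Counting either kind, 25 of 38 genes had a peak. The joint share was not counted over all genes, so the 25 cannot be set against a background. The 13 with neither were Dlg1, Dlg2, Dlg4, Dlgap3, Shank1, Homer2, Camk2a, Camk2b, Iqsec2, Tanc1, Tanc2, Psd and Begain. For Shank1 and Camk2a no annotated start was in the table. Of these 13, Dlgap3 and Camk2a came closest, with summits 1125 and 1134 bp from a bound, and Tanc1 stood farthest, at 36.2 kb.

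Ranked by end peak, the first 10 genes were Nrgn, Homer3, Kalrn, Dlgap1, Lrrc7, Ppp1r9b, Dlgap4, Iqsec1, Ppp1r9a and Magi1, from 968 down to 196. All but Nrgn had it at the 5′ bound. The balance of the replicate columns differed by place, with exceptions both ways. The end peaks of Dlg3, Anks1b, Synpo and Dlgap4 were stronger in the second column, and some strong peaks elsewhere, as in Synpo, Baiap2 and beside Psd and Homer3, were nearly equal in both. Over the 17 at a 5′ bound the medians were 88.0 in the first column and 96.6 in the second, and the second was the larger in 8. The 10 at annotated starts off the ends were alike, with the second larger in 5. Over the 131 inside and away from ends and annotated starts, the medians were 26.4 and 121, and the second was larger in 126 (96.2%). On the log2 scale the median of second over first was −0.04 at 5′ bounds and 2.22 at these internal peaks. Over all protein-coding genes it was 0.26 at 3982 peaks of 5′ bounds, 1.70 at 884 at a 3′ bound only and 1.95 inside and off the ends. Depth per library is unknown, and its part in this difference was not tested.

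**Figure D5:**
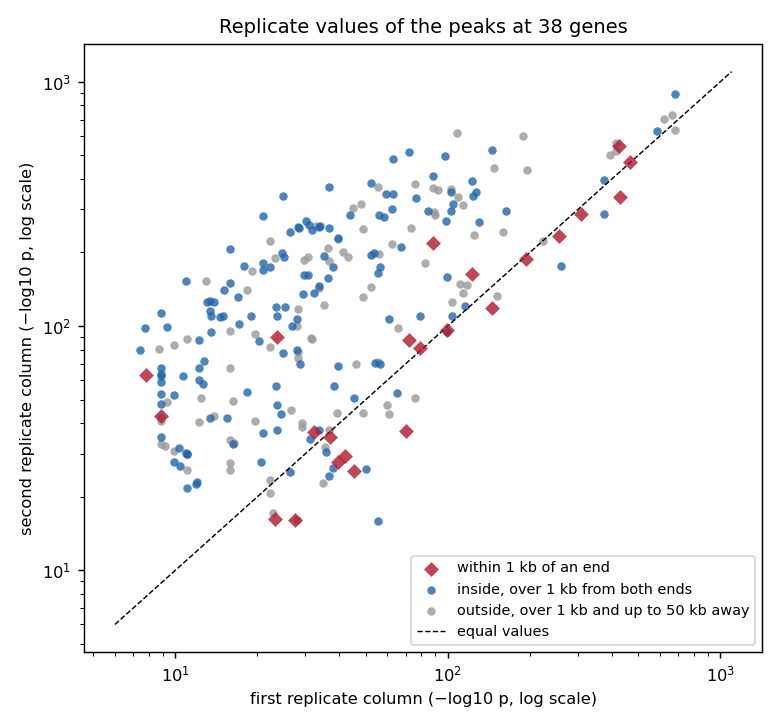
Value of each peak in the first replicate column (horizontal) and the second (vertical), both −log10 p on log scales, for the peaks at ends, inside and in the flanks of the 38 genes, with a dashed line of equal values. End peaks (diamonds) lie on both sides of the line, with the second column larger at 10 of 23, while most peaks inside lie above it, at 131 of 141.

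Flank peaks were more frequent around the short genes. The shorter 19 genes had 71 within 50 kb and the longer 19 had 27, and rho with length was −0.49, against −0.18 over all genes of 10 kb or more. Agap2 had the most, 10, followed by Baiap2 with 8 and Dlg4, Psd and Ppp1r9b with 7 each. The 9 genes with none were Homer1, Camk2d, Magi2, Magi3, Ppp1r9a, Lrrc7, Cnksr2, Begain and Anks1b. Of the 98 flank peaks, 25 lay at an end of another protein-coding gene, 37 inside one, 4 at or in a non-coding gene alone and 32 in none. The strongest were the 2 beside Psd, one of 1321 near Homer3 (columns 620 and 700) at ends of Cers1, Gdf1 and Upf1, and one of 974 near Ppp1r9b.

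A further 39 postsynaptic genes and paralogues outside the 38 were counted in the same way. An end peak was found at 23 (59.0%), against 29.2% of all protein-coding genes. At least 1 summit lay inside 33 and a flank peak was found at 33, against 44.6% and 77.1% of all. Their median length was 93.6 kb, against 17.2 kb for all, with a median of 2 inside. These counts were not read by length class. Their pooled density was 2.71 per 100 kb, against 1.82 over all protein-coding genes. Agap1 and Shank2 held the most, 18 each, more than any of the 38, and Trio, the paralogue of Kalrn, held 13. Shank1 and Shank3 had no end peak, and Shank2 had the strongest of this list, 1017 (columns 574 and 443). Trio followed with 483 (columns 197 and 285) and Psd4 with 385 (columns 89.8 and 295). Kalrn had 2.81 peaks per 100 kb, against 4.02 in Shank2 and 4.09 in Agap1.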

How the data were processed

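CTCF was profiled by chromatin immunoprecipitation and sequencing. Per the labels' protocols, chromatin of formaldehyde-fixed neurons was sonicated and part of each sample was kept as input. The submitters' processing notes name MACS2, BWA, SAMtools, Trimmomatic and FastQC, with GRCm38.p6 and mm10 as builds. How peaks were cut off and inputs used is not given in the sources used here. Columns of the peak list follow the layout of the IDR program for a replicate pair. The −log10 p of each replicate, their sum and the −log10 of the IDR (lowest value 1.30) are deposited values, as is a scaled IDR score made by the authors, which was not used. Read depth is unknown.

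Gene bounds came from the RefSeq table and promoters from its sequence table; genes on scaffolds were left out. A summit was column 2 plus column 10. Counts have exact Poisson intervals at 95%, for counting error only. The counting code was tested on simulated data. Members and lists were chosen with earlier results of these data known. Named genes were all members of families, the 10 strongest end peaks, the 5 genes with most summits within bounds, the 5 of highest density among those of 100 kb or more, every gene lacking a peak, and 3 of each kind from the further list, where 1 of 39 symbols was matched by an older name; the other genes were named after their values were seen. Work was done with pandas 2.3.3, scipy 1.17.1, numpy 2.4.6 and matplotlib 3.10.9 in Python 3.11.15. Alternatives were other peak thresholds, windows and flanks, any base of a peak in place of its summit, and ends not shared with another gene.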

Additional observations from a re-analysis of the deposited data

How the results depend on the processing

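As reported, 20 genes had an end peak and 154 summits lay inside at 1.34 per 100 kb. Among peaks above the median joint strength, 10 genes had an end peak, 72 summits lay inside the 38 genes at 0.63 per 100 kb (0.83 over all genes), and rho with length was 0.47 for the count and −0.46 for the density. Above the median of the first column 73 summits lay inside, at 0.64 per 100 kb, with rho of 0.38 and −0.48. Where the second column exceeded its own median 8 genes had an end peak, and 69 summits lay inside at 0.60 per 100 kb, with rho of −0.44 for the density. These settings use fewer peaks by construction, and the density over all genes is not matched for length. An IDR of 0.01 gave 1.03 per 100 kb, and windows of 5 kb gave 34 genes with an end peak. The number of genes with a peak inside or in the flanks stayed within 1.5 times its main value under every alternative run, and no rho changed sign. Of 266 counts for single genes under these settings, 90 moved by over 1.5 times and 176 did not. The 176 include every count under the windows of 500 bp and 5 kb, which by definition cannot change a count inside. Without Kalrn, an alternative added after the data were seen, 137 summits remained inside and rho was 0.57. No paired analysis was possible because the 1 joint list holds no value of the inputs and its columns carry no replicate number. Single genes hold few peaks, the list shows no site below its threshold, and depth is unknown.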

Other observations

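Along the 20 members of 100 kb or more with a known strand, 102 summits were spread over the gene from its 5′ bound, with 22, 12, 22, 24 and 22 in 5 successive parts of equal length. The part nearest the 5′ bound held 21.6% of them, against 28.3% of 5609 summits in all 1866 protein-coding genes of that length with a known strand, and the part nearest the 3′ bound 21.6% against 24.1%. The 3 parts between held 11.8%, 21.6% and 23.5%, against 14.5%, 15.8% and 17.3%.

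Long stretches without a summit were present in several scaffold genes. Anks1b had one of 539 kb, Magi2 one of 537 kb, Dlg2 one of 426 kb, Dlgap1 one of 408 kb, Dlgap2 one of 353 kb and Lrrc7 one of 352 kb. As a share of the gene the longest stretch took 99.9% in Homer1, 99.6% in Iqsec3, 99.1% in Cnksr2 and 94.1% in Tanc2 and Nrgn. It took 21.6% in Dlg2 and 31.0% in Kalrn and Dlgap4, which hold more peaks. The same share is not given here for all genes of like length. The median over the 37 genes with a peak inside was 58.4%. Sites under the threshold of the list are not seen here.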
